A study of Rattus norvegicus with 9 samples.

Results

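The 2 miRNA rows described here, miR-31a-5p and miR-31a-3p, are the arms of the miR-31 hairpin and were taken by name from a table of 726 rows. Both passed the filter on low counts, which kept 439 rows. The libraries came from condylar cartilage of wild-type rats, as primary cultures labelled cartilage progenitor cells. The P9 group was cultured to passage 9, as a model of replicative senescence. The FFSS group was passage 3 cells under flow fluid shear stress, the drag of moving medium over a cell layer. The P3 group was passage 3 cells without it and served as the control. Each group had 3 libraries, and the labels name no separate animals or cultures behind them. The p-values below therefore describe the spread of these 9 libraries, part or all of which may be technical.

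A miRNA hairpin is cut into a short duplex whose strands, named 5p and 3p, can each be loaded into an Argonaute protein, where bases 2 to 8 (the seed) pair with target mRNAs. miR-31-5p is known in human and mouse cells to repress regulators of adhesion and migration, among them RHOA and the integrin subunit ITGA5. Its gene lies beside the Cdkn2a locus, which encodes the p16 and ARF proteins that stop division in senescent cells, and in human tumours it is often lost together with CDKN2A. Levels of Cdkn2a mRNA were not analysed here.

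The gene, Mir31 in RefSeq, is on rat chromosome 5 (build GRCr8, which differs from the build named in the submitters' processing notes, so that only gene order is used). Its hairpin is on the minus strand and overlaps LOC130062807, a long non-coding RNA gene annotated on the same strand. Of the 8 genes listed between Mir31 and Cdkn2a, 2 code for proteins, C5h9orf85 and Mtap, 4 are pseudogenes and 2 are long non-coding RNAs. On the other side the nearest gene is Ifne, an interferon gene. The label of the miRNA as a neighbour of Cdkn2a therefore held in this annotation.

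The hairpin is printed first, from RefSeq on GRCr8, because both rows are cut from it. Capitals mark the 5p arm and then the 3p arm.
Mir31 hairpin: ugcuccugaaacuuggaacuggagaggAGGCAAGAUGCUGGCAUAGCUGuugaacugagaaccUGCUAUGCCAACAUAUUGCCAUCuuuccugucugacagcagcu
The mature sequences follow with the seed, bases 2 to 8, in capitals. The third belongs to miR-31b, a row of the table assigned to the plus strand of the same place (gene Mir3554).
rno-miR-31a-5p: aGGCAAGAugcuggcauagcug
rno-miR-31a-3p: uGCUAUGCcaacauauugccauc
rno-miR-31b: cUAUGCCAgcaucuugccu
The 3 seeds differ. Of the 726 rows, 578 had a RefSeq sequence, and 0 other rows among them shared a seed with any of the 3.

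miR-31b was the exact reverse complement of the first 19 bases of the 22-base miR-31a-5p, which the capitals mark in the complement.
Reverse complement of rno-miR-31a-5p: cagCUAUGCCAGCAUCUUGCCU
Since the arms of a hairpin pair with each other, miR-31b also resembled miR-31a-3p. Over 19 aligned bases, starting at base 3 of miR-31a-3p, 16 were the same. The differing ones are in capitals.
rno-miR-31b: cuaugccaGcauCuugccU
rno-miR-31a-3p: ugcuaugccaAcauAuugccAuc
Counted from the 5′ end of miR-31b, with its base first, they are G9A, C13A and U19A. miR-31b is therefore read beside the arms throughout.

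The libraries held 2878910 to 8862560 miRNA reads, and FFSS replicates 1 and 3 were the shallowest. Levels are counts scaled to a common total of miRNA reads per library (CPM). The correlation of log2(CPM + 1) over the 439 rows was 0.967 to 0.995 within groups, leaving out P9 replicate 3. P9 replicate 3 stood apart: it reached 0.963 and 0.970 with the other P9 libraries but 0.976 with P3 replicate 2. FFSS replicate 1 was also distant: it reached 0.967 with FFSS replicate 2, which reached 0.972 to 0.975 with the P3 libraries. Results are therefore also given without P9 replicate 3, and each library was left out in turn. All 4 cartilage markers had reads in every group, led by the miR-140 arms. Their summed level was 2590 to 3847 CPM in P9, 6077 to 7202 CPM in FFSS and 4150 to 7370 CPM in P3.

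miR-31a-5p was the dominant arm and a moderately abundant miRNA. It ranked 80 of 726 rows by its mean over the 9 libraries (403 CPM), between miR-425-5p at 406 CPM and miR-34a-5p at 395 CPM. In P9 it stood at 859, 657 and 273 CPM in replicates 1, 2 and 3, from 6538, 5165 and 2233 reads. In FFSS the levels were 201, 303 and 334 CPM, from 578, 2149 and 1300 reads. In P3 they were 407, 232 and 363 CPM, from 3420, 1748 and 3215 reads. P9 replicates 1 and 2 lay above all other libraries, while P9 replicate 3 lay inside the range of both other groups. The FFSS and P3 ranges overlapped.

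**Figure D1:**
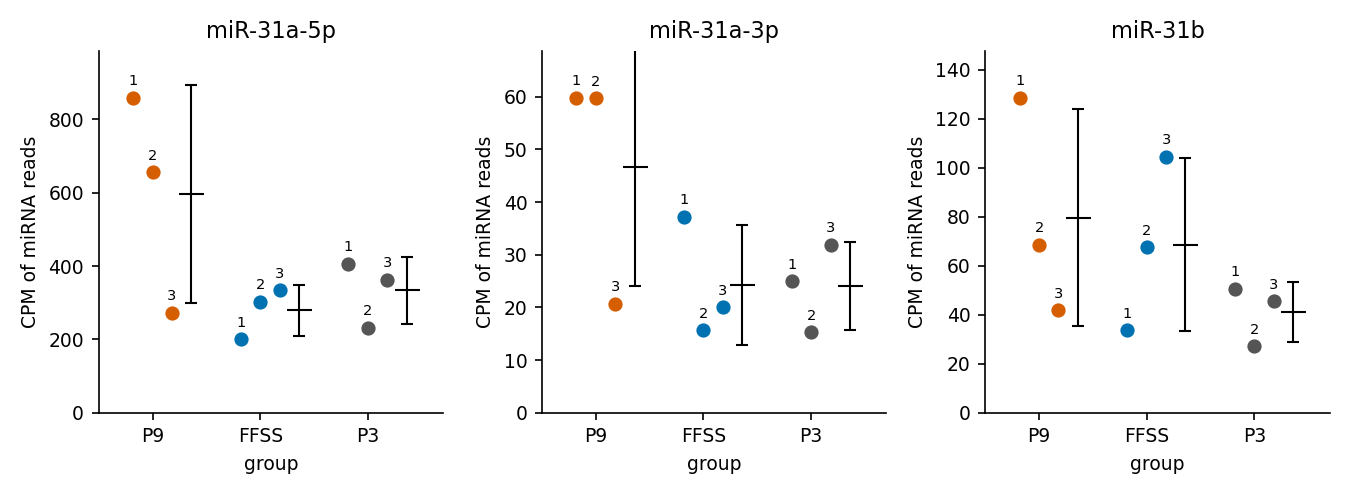
Levels of miR-31a-5p, miR-31a-3p and miR-31b in CPM (vertical axes, from 0) in the 3 libraries of P9, FFSS and P3; numbers are replicates, and the bar beside each group is its mean ± SD (n = 3). For miR-31a-5p and miR-31a-3p, P9 replicates 1 and 2 lie above every other library and P9 replicate 3 lies among them.

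miR-31a-3p, the minor arm, ranked 203 with a mean of 31.7 CPM. It had 59.8, 59.7 and 20.7 CPM in P9, from 455, 470 and 169 reads. FFSS libraries had 37.2, 15.7 and 20.02 CPM, from 107, 111 and 78 reads. P3 libraries had 24.97, 15.3 and 31.9 CPM, from 210, 115 and 283 reads. As for the 5p arm, P9 replicates 1 and 2 were above all other libraries and P9 replicate 3 was not. FFSS replicate 1, lowest for the 5p arm among all 9 libraries, was the third highest for the 3p arm.

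miR-31b ranked 165 with a mean of 63.1 CPM. Its P9 libraries had 128, 68.5 and 41.9 CPM, its FFSS libraries 33.7, 67.6 and 104 CPM, and its P3 libraries 50.6, 27.1 and 45.5 CPM. All pairs of groups overlapped. FFSS replicate 3, second to P9 replicate 1, stood above all 3 P3 libraries, as did FFSS replicate 2.

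Passage 9 was compared with passage 3 to read the gene beside the senescence locus in the replicative senescence model. Both arms had higher mean levels in P9, but neither passed the test. miR-31a-5p averaged 596 ± 297 CPM in P9 and 334 ± 90.6 CPM in P3 (SD, n = 3 each). Its log2 fold change was 0.88 (SE 0.36; edgeR adjusted p = 0.212). miR-31a-3p averaged 46.7 ± 22.6 CPM in P9 and 24.1 ± 8.36 CPM in P3 (SD, n = 3 each), with a log2 fold change of 0.997 (SE 0.47; edgeR adjusted p = 0.293). Thus 0 of the 2 arms were called by edgeR, 1 had an unadjusted p under 0.05 (0.0302 for the 5p arm, against 0.0528 for the 3p arm), and DESeq2 and limma-voom called 0. Over all rows 7.29% were called (3.87% higher, 3.42% lower), 17.3% had an unadjusted p under 0.05, and the median log2 fold change was 0.062. The P9 and P3 ranges overlapped for both arms, while they did not for 25.3% of all rows.

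The outcome for passage 9 rested on P9 replicate 3. Without it, miR-31a-5p had a log2 fold change of 1.21 and passed (edgeR adjusted p = 0.00864), and miR-31a-3p had 1.34 and did not (edgeR adjusted p = 0.0539). Leaving out any other library left both arms uncalled. The lowest values were 0.60 for the 5p arm without P9 replicate 1 and 0.75 for the 3p arm without P9 replicate 2. P9 replicate 3 also differed in markers of other tissues. Its muscle marker sum (5 miRNAs) was 534 CPM, against 151 to 167 CPM in the other P9 libraries and 141 to 158 CPM in P3. Its sum of 6 endothelial, nervous and liver markers was 2059 CPM, against 896 to 928 CPM in the other P9 libraries and 930 to 1570 CPM in P3. Single rows dominated both sums. In P9 miR-1b averaged 237 ± 195 CPM (SD, n = 3), and the other muscle markers at most 19.9 CPM. miR-128-3p, also on the list of miRNAs reported up in senescence, averaged 888 ± 520 CPM (SD, n = 3), and miR-126a-3p 347 CPM. The sums therefore do not show several markers of a tissue rising together. Its epithelial marker sum (7 miRNAs) was the lowest of P9, at 25.2 CPM against 75.4 and 77.7 CPM in the other P9 libraries and 81.1 to 102 CPM in P3. Its blood marker sum (6 miRNAs), 307 CPM, did not set it apart: the other P9 libraries had 69.5 and 301 CPM, and P3 had 75.7 to 156 CPM. Its cartilage marker sum, 2590 CPM, was the lowest of all libraries. The part of these markers in the miR-31a values was not tested, and in bulk RNA fewer cells of a type and less RNA per cell cannot be told apart.

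**Figure D2:**
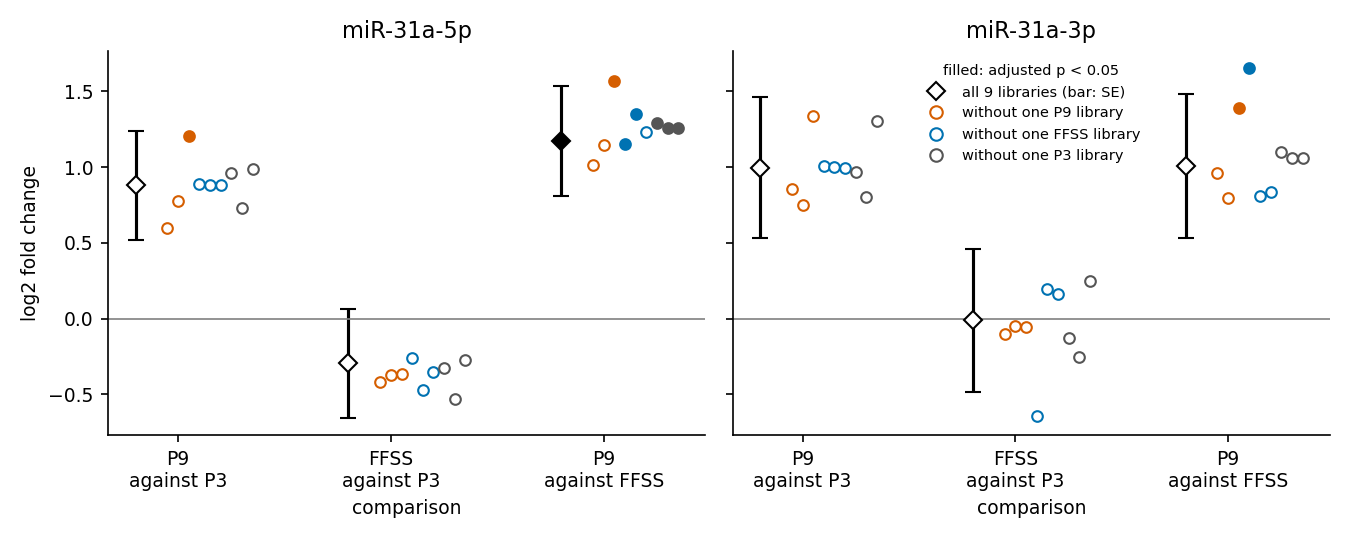
Log2 fold changes (vertical axis) of miR-31a-5p and miR-31a-3p in the 3 comparisons. Diamonds with SE bars use all 9 libraries and circles leave out 1 library of the group in the colour shown; filled symbols had an edgeR adjusted p under 0.05. The only call with all libraries is miR-31a-5p in P9 against FFSS, and the filled P9 against P3 circle for that arm is the fit without P9 replicate 3.

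Shear-stressed cells were compared with P3 to read the gene under mechanical load at the same passage. Neither arm was called. miR-31a-5p averaged 279 ± 69.7 CPM in FFSS and 334 ± 90.6 CPM in P3 (SD, n = 3 each; log2 fold change -0.30, SE 0.36, edgeR adjusted p = 0.564). The value stayed negative in every alternative, between -0.53 and -0.23. miR-31a-3p averaged 24.3 ± 11.4 CPM in FFSS and 24.1 ± 8.36 CPM in P3 (SD, n = 3 each; log2 fold change -0.011, SE 0.47, edgeR adjusted p = 0.989). Its sign depended on the scaling, and FFSS replicate 1 moved it most, to -0.64 without that library (edgeR adjusted p = 0.336). So 0 of 2 arms were called by edgeR, DESeq2 or limma-voom, and 0 had an unadjusted p under 0.05. Over all rows edgeR called 20.5% (6.83% higher, 13.7% lower), 36.2% had an unadjusted p under 0.05, and groups did not overlap for 41.5%, while they did for both arms.

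The test of P9 against FFSS set the models side by side. miR-31a-5p was higher in P9, at 596 ± 297 CPM in P9 and 279 ± 69.7 CPM in FFSS (SD, n = 3 each). The log2 fold change was 1.17 (SE 0.36; edgeR adjusted p = 0.0250), higher in 2 of 3 P9 libraries than in any FFSS library, so the groups overlapped. miR-31a-3p averaged 46.7 ± 22.6 CPM in P9 and 24.3 ± 11.4 CPM in FFSS and did not pass (log2 fold change 1.01, SE 0.47, edgeR adjusted p = 0.110). This call on 1 of 2 arms, also made by DESeq2 and limma-voom, stands against 34.4% of all rows called in this comparison (22.6% higher, 11.8% lower). An unadjusted p under 0.05 was reached by 46% of all rows, and 42.8% had groups that did not overlap. By p the 5p arm ranked 116 and the 3p arm 209 of the 439 rows.

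The call on miR-31a-5p was not stable. It was lost without P9 replicate 1 (edgeR adjusted p = 0.0704), P9 replicate 2 (0.0573) or FFSS replicate 3 (0.0633). It was also lost in a fit of only P9 and FFSS (0.0508) and with limma on log2(TPM + 1) (0.0803). Without P9 replicate 3 the value was 1.57 (edgeR adjusted p = 4.54e-04). For miR-31a-3p the fit passed without P9 replicate 3 (log2 fold change 1.39, edgeR adjusted p = 0.0154) and without FFSS replicate 1 (1.65, edgeR adjusted p = 0.0184). From high to low, the mean level of the 5p arm ran P9, P3, FFSS. The neighbours in that order, P9 and P3 and then P3 and FFSS, did not differ past the test.

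The ratio of the arms within a library does not depend on scaling between libraries. The arms are of near-equal length, and reads are compared without correction. Whether both arms entered the libraries equally well was not tested, so the ratio is of reads and not of molecules. There were 14.4, 10.99 and 13.2 reads of miR-31a-5p per read of miR-31a-3p in P9. In FFSS there were 5.40, 19.4 and 16.7, and in P3 16.3, 15.2 and 11.4. The 5p arm thus led in all 9 libraries, and the 3p arm made up 4.91% to 15.6% of the reads of both arms.

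FFSS replicate 1 stood apart in this ratio. Its 3p share was 15.6% (95% Wilson interval 13.1% to 18.5%). In the other 8 libraries the share was 4.91% to 8.34%, with the highest interval bound at 9.09%. Such intervals cover counting error only. This library was the shallowest, with 578 and 107 reads of the arms, and its 3p level of 37.2 CPM was high for its group while its 5p level was the lowest measured.

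**Figure D3:**
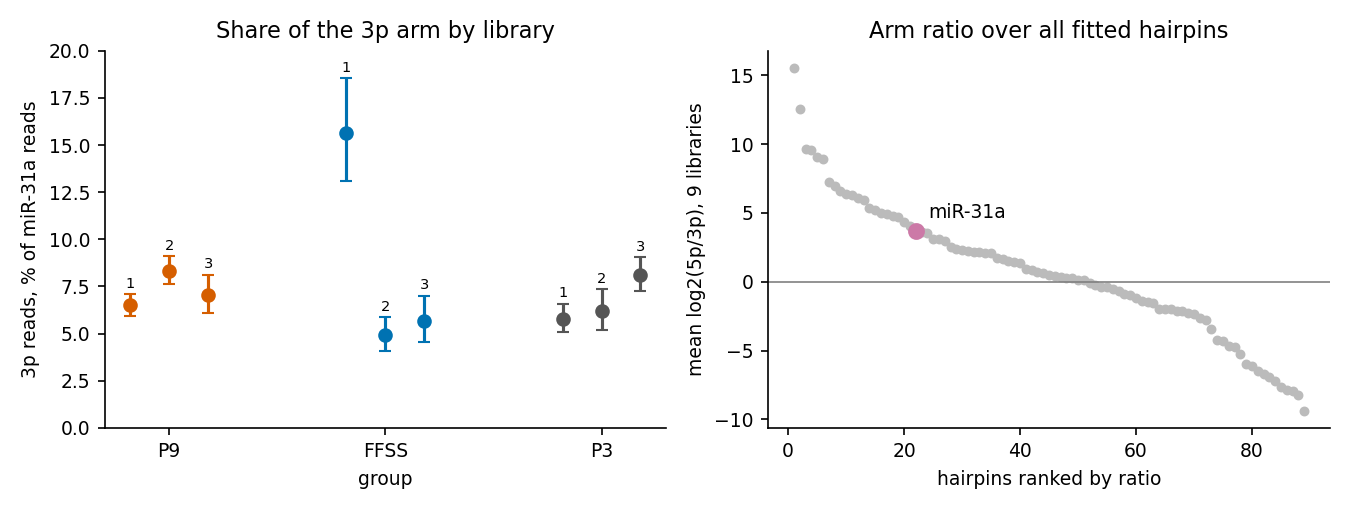
Left, share of miR-31a-3p among the reads of both arms (percent, from 0) in each library of P9, FFSS and P3, with 95% Wilson intervals; numbers are replicates, and FFSS replicate 1 lies above all others at 15.6%. Right, mean log2 ratio of 5p to 3p reads over the 9 libraries for the 89 fitted hairpins, in rank order, with miR-31a at rank 22.

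The log2 arm ratio averaged 3.67 ± 0.20 in P9, 3.58 ± 1.01 in FFSS and 3.82 ± 0.27 in P3 (SD, n = 3 each). In a limma fit over 89 hairpins none of the comparisons passed for miR-31a. The differences were -0.14 for P9 against P3 (SE 0.46, limma adjusted p = 0.990), -0.23 for FFSS against P3 (SE 0.46, limma adjusted p = 0.725) and 0.091 for P9 against FFSS (SE 0.46, limma adjusted p = 0.906). The unadjusted p was over 0.05 in each (0.761, 0.618 and 0.845). Across the 89 hairpins 0%, 12.4% and 11.2% passed in the same order of comparisons. The ratio's groups overlapped for miR-31a in all 3 comparisons, while they did not for 8.99%, 44.9% and 30.3% of the hairpins. Without FFSS replicate 1 the last 2 differences turned to 0.34 and -0.49 (limma adjusted p = 0.515 and 0.279). By mean ratio miR-31a ranked 22 of 89, between the hairpins of miR-34c at 4.01 and miR-872 at 3.5996.

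miR-31b needed a check of how opposite-strand rows were counted. Of the 726 rows, 43 pairs had RefSeq positions on opposite strands that overlapped by at least 15 bases, and 38 of these had a mean of at least 10 counts in the higher row. In 27 of the 38, each library gave the pair nearly the same count (a gap of at most 10% or 5 reads), so for those pairs the table does not separate the strands. Rows of such pairs enter the shares of all rows separately where the filter kept them. An example is miR-378a-3p and miR-3557-5p, both called lower in P9 against P3. The shares were not recomputed with such pairs merged. miR-31b and miR-31a-5p were not among the 27: the lower row had 15.7% of the mean level of the higher, against a median of 99.7% over the 38 pairs, and only 3 pairs had a lower percentage. Whether reads of miR-31a-5p also entered the miR-31b row was not tested, and neither was an exchange of reads between miR-31b and the similar miR-31a-3p. Values of miR-31b are therefore uncertain as a separate molecule.

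Relative to miR-31a-5p, the miR-31b row was highest under shear stress. There were 14.96, 10.4 and 15.4 reads of miR-31b per 100 reads of miR-31a-5p in P9. In FFSS there were 16.8, 22.3 and 31.3, and in P3 12.5, 11.7 and 12.5. All FFSS libraries lay above all P9 and all P3 libraries, and the P3 libraries averaged 12.2 ± 0.478 (SD, n = 3).

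This ratio was chosen after its values were seen. On the log2 scale it was 0.89 higher in FFSS than in P3 and 0.76 lower in P9 than in FFSS, each with an exact two-sided permutation p = 0.1, the smallest that 3 against 3 libraries allow. For P9 against P3 the difference was 0.13 (exact permutation p = 0.5). After adjustment over the 3 comparisons the values were 0.15, 0.15 and 0.5. With 3 libraries a group no outcome could have reached 0.05, so these p-values decide nothing. Of the 11 pairs of opposite-strand rows whose counts were not near-identical, miR-31b's pair included, 9.09% did not overlap between P9 and P3, 63.6% did not between FFSS and P3 and 45.5% between P9 and FFSS, so separation of this kind was frequent.

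**Figure D4:**
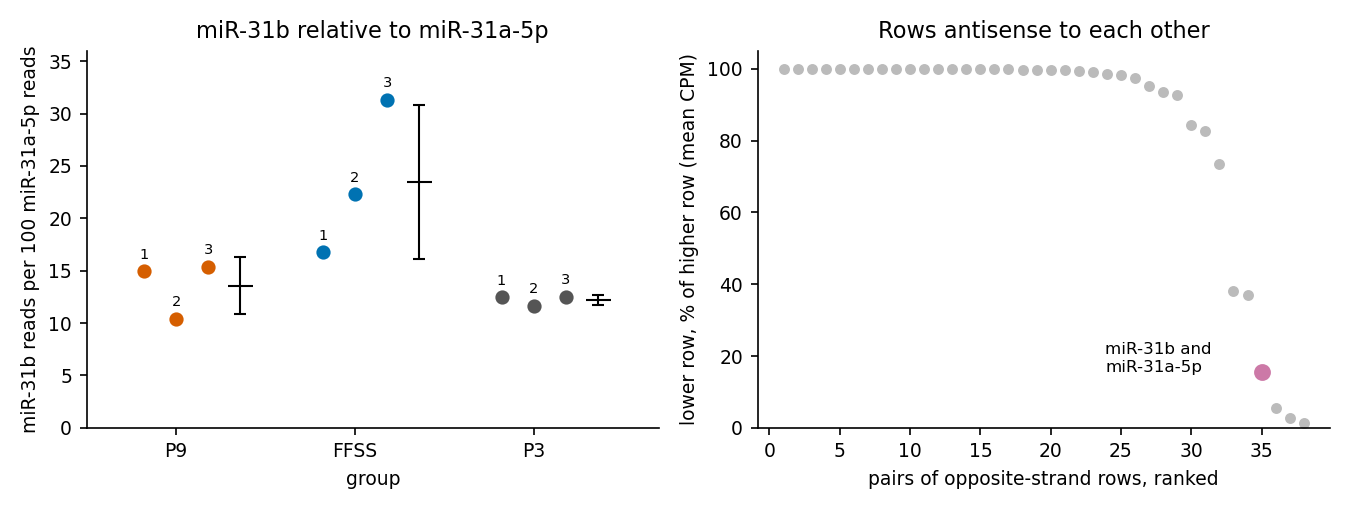
Left, reads of miR-31b per 100 reads of miR-31a-5p (from 0) by library of P9, FFSS and P3, with replicate numbers and mean ± SD (n = 3). All 3 FFSS libraries, at 16.8 to 31.3, lie above the others, FFSS replicate 1 within counting error of P9 replicates 1 and 3. Right, the 38 pairs of rows on opposite strands, ranked by the mean level of the lower row as a percentage of the higher; miR-31b and miR-31a-5p stand at 15.7%.

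As a row of its own miR-31b was not called in any comparison. Its log2 fold change was 0.99 for P9 against P3 (SE 0.41, edgeR adjusted p = 0.221), 0.67 for FFSS against P3 (SE 0.41, edgeR adjusted p = 0.252) and 0.31 for P9 against FFSS (SE 0.41, edgeR adjusted p = 0.582). The unadjusted p was under 0.05 in the first of these (0.0322), and DESeq2 and limma-voom called 0. Without P9 replicate 3 the first value was 1.27 and passed (edgeR adjusted p = 0.0411), and without P9 replicate 1 it was 0.55. The FFSS against P3 value was 0.36 without FFSS replicate 3 and 0.41 without P3 replicate 2. The P9 against FFSS value was 0.0043, 0.48 and 0.67 when P9 replicate 1, 2 or 3 was left out, and 0.15 and 0.63 when FFSS replicate 1 or 3 was. With its reads added to those of miR-31a-3p, the FFSS against P3 value of that row became 0.51 (edgeR adjusted p = 0.319) the P9 against P3 value 1.02 (edgeR adjusted p = 0.128) and the P9 against FFSS value 0.52 (edgeR adjusted p = 0.286). The arm ratio then differed by -0.77 for FFSS against P3 (limma adjusted p = 0.112), 0.63 for P9 against FFSS (limma adjusted p = 0.176) and -0.15 for P9 against P3 (limma adjusted p = 0.990).

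Rows whose level followed miR-31a-5p most closely over the 9 libraries were sought among 180 other tested rows with a mean of at least 50 CPM. The highest Pearson correlation of log2(CPM + 1) was 0.982 with miR-143-5p, the minor arm of a smooth muscle and fibroblast miRNA. Then came miR-107-3p at 0.950, of the miR-103/107 family, miR-181d-5p at 0.911, miR-221-3p at 0.837, known to repress the cell cycle inhibitor p27, and miR-30a-5p at 0.836. These are descriptions over 9 libraries that share the group differences and each library's composition. P9 replicates 1 and 2 were the farthest from the median, and without them the correlations over 7 libraries were 0.944 for miR-143-5p, 0.922 for miR-107-3p, 0.717 for miR-181d-5p, 0.518 for miR-221-3p and 0.385 for miR-30a-5p. miR-143-5p averaged 720 CPM in P9, 242 CPM in FFSS and 302 CPM in P3, the same order of groups as miR-31a-5p.

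Closest to the 3p arm were miR-181d-5p at 0.858, also among the closest rows of the 5p arm, miR-28-3p at 0.848, miR-181a-1-3p and miR-3570 at 0.829, and miR-542-3p at 0.795. Without P9 replicates 1 and 2 these were 0.508, 0.648, 0.799 for both members of the pair, and 0.514 over 7 libraries. miR-181a-1-3p and miR-3570 are opposite-strand rows with near-identical counts and so count as a single row here. Between the arms of miR-31a themselves the correlation was 0.721, rank 17 among the rows set against the 5p arm. Without P9 replicates 1 and 2 it was -0.029 over 7 libraries. These 7 included FFSS replicate 1, lowest of all libraries for the 5p arm but high for the 3p arm. A correlation without that library was not computed, so -0.029 does not show which libraries the agreement of the arms rested on. miR-31b reached 0.752 with the 5p arm (0.589 without P9 replicates 1 and 2) and 0.393 with the 3p arm (-0.196 without them).

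**Figure D5:**
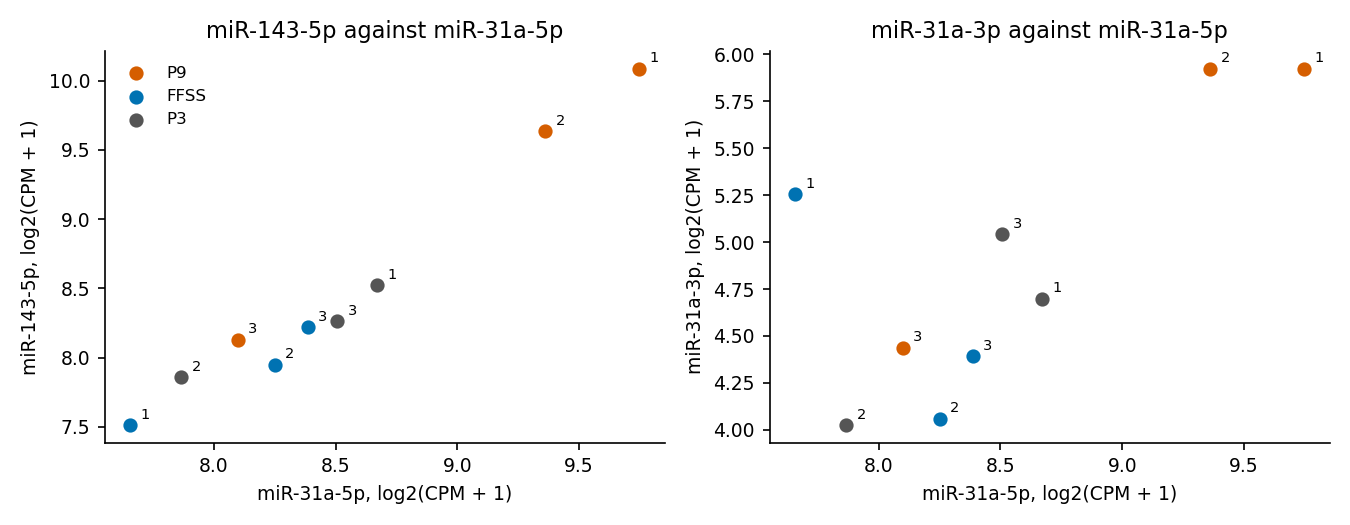
Level of miR-143-5p (left) and miR-31a-3p (right) against miR-31a-5p in the 9 libraries, as log2(CPM + 1), coloured by group with replicate numbers. miR-143-5p follows miR-31a-5p over the 9 libraries (Pearson 0.982). For miR-31a-3p (0.721) FFSS replicate 1 lies off, and P9 replicates 1 and 2 are highest on both axes.

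Among other miRNA genes on chromosome 5, the nearest on the Cdkn2a side was Mir872, beyond Cdkn2a. Its miR-872-5p averaged 389 CPM in P9, 417 CPM in FFSS and 414 CPM in P3 and was not called in any comparison (edgeR adjusted p = 0.956 for P9 against P3, 0.964 for FFSS against P3 and 0.944 for P9 against FFSS).

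Of 10 miRNAs reported to act on p16 or on its Polycomb and Hmga2 regulators, edgeR called 0 in P9 against P3 (median log2 fold change -0.28 against 0.062 over all rows). There, 3 had an unadjusted p under 0.05, DESeq2 called 1 and limma-voom 0. Of all rows 7.29% were called by edgeR there and 17.3% had an unadjusted p under 0.05. In FFSS against P3, 1 rose, where 20.5% of all rows were called (median 0.11 against 0.024 over all rows): miR-24-3p, known to repress p16 in human cells, at 0.84 (SE 0.27, edgeR adjusted p = 0.0459), a call lost in 7 of the 9 fits that left out a library. In P9 against FFSS, 1 was higher and 3 lower, in both directions a share near the 34.4% of all rows called (median -0.50 against 0.024). By direction, 22.6% of all rows were called higher and 11.8% lower. The list joins miRNAs that act on p16 with miRNAs that act on its regulators, so its medians have no single reading for p16. miR-322-5p was higher at 2.34, and let-7b-5p, known to act on Hmga2 in mouse, miR-26a-5p and miR-24-3p were lower at -1.07, -0.71 and -0.89 (edgeR adjusted p = 0.00487, 0.00273, 0.0211 and 0.0229). The number lower was 1 in 6 of the fits that left out a library.

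Of 8 tested miRNAs reported to repress Runx2, a bone transcription factor, 1 rose in P9 against P3 (median 0.036), 1 rose in FFSS against P3 (median 0.73), and 1 was higher and 1 lower in P9 against FFSS (median -0.53). Of all rows 7.29%, 20.5% and 34.4% were called in these comparisons, with medians of 0.062, 0.024 and 0.024. Of 14 tested miRNAs reported up in senescence, 5 rose and 1 fell in P9 against P3 (median 0.25), 3 rose in FFSS against P3 (median 0.20), and 4 were higher and 1 lower in P9 against FFSS (median 0.18). Counted in both directions, the calls in FFSS against P3 and P9 against FFSS are near the same shares of all rows, 20.5% and 34.4%. Of all rows 6.83% and 22.6% were called higher in these comparisons. In P9 against P3 the members that rose were both arms of miR-34b, both arms of miR-34c, and miR-146b-5p. The 5 calls are thus not 5 separate miRNA genes. Of these, miR-34c-5p, a p53-induced miRNA, was at 2.72 (SE 0.42, edgeR adjusted p = 0.00105). It was also the Runx2 list member that rose in P9 against P3 and was higher in P9 against FFSS. The member that fell was miR-146a-5p, an inhibitor of NF-kB signalling, at -3.82 (SE 0.99, edgeR adjusted p = 0.0419). When 1 library was left out, 3 to 5 of the senescence list were higher and 0 to 1 lower in P9 against P3, 1 to 3 were higher in FFSS against P3 and 2 to 6 in P9 against FFSS. For the Runx2 list 0 to 2 were higher in FFSS against P3 in such fits, and 0 to 2 lower in P9 against FFSS. These lists were chosen with results of these data known.

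miR-31 is also abundant in epithelia, so markers of other cell types were set beside it. All 7 epithelial markers had reads in each group. Their sum was 25.2 to 77.7 CPM in P9, 90.4 to 226 CPM in FFSS and 81.1 to 102 CPM in P3. Within P9 the sum was lowest in replicate 3, where miR-31a-5p was also lowest, while P9 as a group had lower sums than FFSS and P3. The part of epithelial RNA in the miR-31a values was not tested. Blood marker sums (6 miRNAs) were 69.5 to 307 CPM in P9, 167 to 592 CPM in FFSS and 75.7 to 156 CPM in P3, where miR-144-3p was at 0. Muscle marker sums were 151 to 534 CPM in P9, 189 to 538 CPM in FFSS and 141 to 158 CPM in P3. The sums of the endothelial, nervous and liver markers were 896 to 2059 CPM in P9, 1311 to 1993 CPM in FFSS and 930 to 1570 CPM in P3. By group mean, miR-1b was the largest member of the muscle sum and miR-128-3p of this last sum in every group. Of 23 tested members of these lists and the cartilage list, edgeR called 0 in P9 against P3, where 2 had an unadjusted p under 0.05, DESeq2 called 1 and limma-voom 0. Their median log2 fold change there was 0.043, against 0.062 over all rows. Of all rows 7.29% were called by edgeR there and 17.3% had an unadjusted p under 0.05. In FFSS against P3 edgeR called 3 higher, miR-200b-3p of epithelium, miR-142-5p of blood and miR-9a-5p of the nervous system. In P9 against FFSS it called 3 lower, miR-140-3p of cartilage, miR-203a-3p of epithelium and miR-142-5p. All calls in a comparison thus went in a single direction. Of all rows 6.83% were called higher in FFSS against P3 and 11.8% lower in P9 against FFSS (20.5% and 34.4% in both directions). The median log2 fold change of the 23 members was 0.77 and -0.77 in these comparisons, against 0.024 over all rows.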

How the data were processed

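Counts of 9 small RNA libraries were read from a deposited table. Per the file headers it holds a read count and a TPM value for each row and library. The deposited TPM equals CPM of the library's column (they differ by at most 4.85e-05) and is not adjusted for length. Per the submitters' processing notes, Bowtie and the build Rnor_6.0 were used. Which counting program was run, and on which miRNA release, was not given in the sources used here.

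Counts were tested with edgeR 4.0.16 in R 4.3.3 (filterByExpr, TMM, robust quasi-likelihood test, 1 model of all 9 libraries), with Benjamini-Hochberg adjustment over the 439 rows kept and calls at an adjusted p under 0.05. Arm ratios, log2 of 5p over 3p counts with 0.5 added, were fitted with limma 3.58.1 with a variance trend over 89 hairpins, each arm averaging 20 counts or more. Standard errors of edgeR come from the fold change and its F value. The code was tested on simulated data. Alternatives were other scalings, filters, tools (DESeq2 1.42.0, limma-voom, limma on log2(TPM + 10) or log2(TPM + 1)), a replicate block, a model of just the 2 groups in question, and leaving out each library.

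Besides the arms, rows were named by rule: rows called miR-31 with a letter or sharing a seed, the 5 rows most correlated with each arm, neighbours in rank and on the chromosome, and called members of 8 lists (up to 4, smallest p). miR-872, the miR-31b ratio and the correlations of miR-31b were chosen after their values were seen. The members and lists were chosen with earlier results of these data known.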

Additional observations from a re-analysis of the deposited data

How the results depend on the processing

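The 21 alternatives planned for each row kept the direction of miR-31a-5p in the 3 comparisons and of miR-31a-3p in both comparisons of P9. For P9 against FFSS the call on miR-31a-5p was lost with log2(TPM + 1) (0.97), log2(TPM + 10) (0.95), only the 2 groups compared (1.21) and the replicate block (1.13, adjusted p = 0.0545), and leaving out 1 library gave 1.02 to 1.57. The cause was not tested. For P9 against P3, leaving out 1 library gave 0.60 to 1.21 for miR-31a-5p, 0.75 to 1.34 for miR-31a-3p and 0.55 to 1.27 for miR-31b. For P9 against FFSS it gave 0.80 to 1.65 for miR-31a-3p. The value of miR-31a-3p for FFSS against P3, close to 0, turned positive with library size only (5.41e-04), DESeq2 size factors (0.047), upper-quartile factors (0.071), a mean of at least 50 counts (0.042), DESeq2 (0.051), only the 2 groups compared (0.035) and miR-31b added (0.51, chosen after seeing the data), and leaving out 1 library gave -0.64 to 0.25. The arm ratio ranged without 1 library from -0.30 to -0.034 for P9 against P3, from -0.58 to 0.34 for FFSS against P3 and from -0.49 to 0.43 for P9 against FFSS.

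Over all alternatives the number of rows called higher was 8 to 26 (17 as reported) and lower 7 to 25 (15) for P9 against P3, 3 to 53 (30) and 32 to 94 (60) for FFSS against P3, and 77 to 123 (99) and 28 to 81 (52) for P9 against FFSS. The replicate numbers share no stated source. Deviations from the group mean correlated at -0.442 to 0.127 for same-numbered libraries and at -0.45 to 0.448 for the others. With 3 libraries a group such values cannot decide whether the numbers pair the samples. The block left the other calls on the miR-31a rows as they were, and cut the rows called higher for FFSS against P3 to 9. With 78 to 470 reads of miR-31a-3p per library, depth limits that arm most.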
